A study of Brassica napus with 48 samples.

Results

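The response of seeds to shading was examined in the rapeseed (Brassica napus) genotype Solar, sown late and sampled at 14 days after flowering (DAF). Its members were the 3 libraries labelled Solar, SHADING, Delayed and 14 DAF and the 3 libraries labelled Solar, CONTROL, Delayed and 14 DAF, which are 6 of the 48 RNA-seq libraries of the series. The study compared the seed transcriptomes of the spring hybrids Lumen and Solar at 7 and 14 DAF, from optimal and late sowing dates, with and without a reduced source–sink (S–S) ratio in the field. Shaded plots stood under black nets that cut the sunlight by 75%. The nets went up when flowering began and came down at 15 DAF, so they were still in place when the seeds were taken. Control plots had no nets. Each library pooled seeds of 5 plants of 1 plot, with 25 siliques taken per plant and 3 plots per group in a split-split plot layout, so p-values refer to the spread between plots. The 24 Lumen libraries served for comparison and for the estimate of spread.

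A growing seed is a sink, fed with sucrose by leaves and silique walls, and shading at flowering reduces this source. The study reports fewer but heavier seeds under such shading, and the carbon that reached each seed was not measured here. Sucrose leaves the seed coat through exporters of the SWEET family and enters endosperm and embryo through proton symporters of the SUC family. As the seed passes to filling, the factor WRINKLED1 (WRI1) turns on genes of glycolysis and fatty acid synthesis. In carbon-starved or darkened tissues, plants induce factors of the NAC family that act in leaf senescence and in the recycling of nutrients, which is known best from Arabidopsis thaliana leaves.

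The values are TPM, the share of a transcript among all transcripts of a library scaled to a fixed sum, which the authors normalized and rounded to whole numbers. Their sums ranged from 985278 to 1028475 in the shaded libraries, against 1029050 to 1125350 in the control libraries, and the number of reads behind each value is unknown. The library sums of the whole series ran from 908993 to 1219379. A total of 36 transcripts with at least 5 TPM in all 6 libraries were listed at 0 in all 24 Lumen libraries. Their summed level in the other 18 libraries labelled Solar had a median of 53.3% of the mean of the 6, from 0% to 114%. It was under 75% in 12 of the 18. Another 30 transcripts had at least 5 TPM in all 24 Lumen libraries and 0 in all 6. Their summed level in the 18 had a median of 38.3% of the Lumen mean, from 0% to 108%. Both sets were picked in part on the 6, so part of the difference follows from the choice. The 18 libraries were left out, and what these levels reflect was not tested. Over genes with at least 5 TPM in 3 of the 6 libraries, the shaded libraries correlated with each other across genes at r = 0.904 to 0.94 and the control libraries with each other at 0.894 to 0.934. Control replicate 3 stood as close to shaded replicate 1 (r = 0.927) as to control replicate 1 (0.926). Its correlation was 0.912 to shaded replicate 2, 0.894 to control replicate 2 and 0.856 to shaded replicate 3. Control replicate 2 was the farthest from the shaded libraries (0.805 to 0.858). Some genes expressed in developing seeds were examined as a check of the tissue, without a test. Homologues of FAD2, of chalcone synthase (CHS) and of the seed coat genes TT12 and GL2 were above 0 in all 6 libraries. The WRI1 homologues had 1 to 3 TPM in the shaded libraries, and the SUC5 homologue was listed at 0 in all 3 controls. The homologue of the seed oil body protein OLEO2 was listed at 0 in all but control replicate 2, where it had 3 TPM. Other oleosin genes had 0 to 5 TPM. No tissue was named from these levels.

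Shaded seeds had higher levels of 7 NAC factors and of homologues of bZIP3, HB40, LOG1 and SUC5, and lower levels of a RING finger gene and a RIN4 domain gene. Homologues of WRI1, MIPS1 and ERECTA were also called lower, but these calls held in only 1 (WRI1) or 2 (MIPS1, ERECTA) of the 6 fits that left out 1 library. The calls of the HB40 homologues BnaA01g01090D and BnaC01g02120D held in 3 and 4 of these 6 fits. Of 55469 genes tested with limma on log2(TPM + 0.5), 722 (1.3% of those tested) passed a Benjamini-Hochberg adjusted p of 0.01, of which 343 (0.618%) were higher and 379 (0.683%) were lower in shaded seeds. The 3 shaded values were all above the 3 control values in 340 of the 343 genes and all below them in 363 of the 379 genes, while 5.32% and 5.83% of all genes tested had their values apart in these directions. The genes called lower held 0.653%, 0.534% and 0.408% of the summed TPM in the shaded libraries, against 1.58%, 3.34% and 1.23% in the control libraries. The genes called higher held 0.608%, 0.903% and 1.19% in the shaded libraries, against 0.181%, 0.16% and 0.237% in the control libraries. Neither pair of ranges overlapped, although these genes were chosen on the same values.

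The calls rest on the spread estimated over 30 libraries, and their number depended on that choice. With the spread taken from the 12 libraries of late sowing at 14 DAF, 157 of the 343 genes called higher and 35 of the 379 called lower kept their call, and limma called 305 genes higher and 48 lower in all. With the 6 libraries alone, limma called 285 genes, of which 68 were among the 722. Where only the 30864 genes that reached 5 TPM in 3 of the 6 libraries entered, limma on the 6 libraries alone called 0 genes, with 3978 genes at an unadjusted p under 0.05. Many calls were of low genes, for which 1 unit of the whole-number values decides: both group means were under 5 TPM in 121 of the genes called higher and 116 of those called lower, and among those 30864 genes the 30-library fit called 362 (1.17%), 174 higher and 188 lower. Leaving out control replicate 3 gave 1129 calls, and leaving out shaded replicate 1 gave 853. Without control replicate 1, control replicate 2, shaded replicate 2 or shaded replicate 3 there were 414, 310, 427 or 323 calls. In every fit without 1 of the 6 libraries, 117 of the genes called higher and 95 of those called lower kept their call. Only 53 of the genes called higher and 35 of those called lower carry an Arabidopsis homologue or a domain in the tables used here.

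The genes that rose most among those with an annotation included NAC, bZIP and homeodomain factors. Homologues of NAC047, a factor of the NAC family induced in senescing leaves of Arabidopsis, were close to absent in the controls. BnaC01g40250D (NAC047) had 15, 37 and 52 TPM in shaded seeds, against 1, 0 and 0 TPM in control seeds, a log2 difference of 5.44 ± 0.69 (SE, on the log2(TPM + 0.5) scale, n = 3 each, adjusted p = 7.65e-05 by limma). BnaA05g37410D (NAC047) had 13, 34 and 32 TPM in shaded seeds, against 1, 0 and 0 TPM in control seeds (log2 difference 5.10 ± 0.72, adjusted p = 0.000283). All shaded values of both genes were above all control values, and shaded replicate 1 was the lowest of its group in each. A homologue of NAP, a NAC factor that promotes leaf senescence in Arabidopsis, followed the same order, as BnaA07g28000D had 13, 18 and 42 TPM in shaded seeds, against 0, 1 and 1 TPM in control seeds (4.40 ± 0.65, adjusted p = 0.000398). BnaA03g05670D (bZIP3), a bZIP factor, had 7, 24 and 13 TPM in shaded seeds, against 1, 0 and 0 TPM in control seeds (4.23 ± 0.68, adjusted p = 0.000908). BnaA01g01090D (HB40), a homeodomain leucine zipper factor, had 11, 26 and 59 TPM in shaded seeds, against 2, 0 and 1 TPM in control seeds (4.41 ± 0.81, adjusted p = 0.00261). The call of HB40 was lost in 3 of the 6 fits that left out 1 library (highest adjusted p = 0.0281), whereas the NAC047, NAP and bZIP3 genes kept it in all 6.

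BnaA07g23350D, a homologue of the sucrose/proton symporter SUC5, which in Arabidopsis is a gene of the endosperm, had 5, 6 and 17 TPM in shaded seeds and was listed at 0 in all 3 control libraries (adjusted p = 0.000715). BnaC04g15990D, a homologue of LOG1, an enzyme that releases active cytokinins, had 8, 7 and 15 TPM in shaded seeds and was also listed at 0 in all control libraries (adjusted p = 7.14e-05). It was the only 1 of the 25 annotated genes named by size of change that limma also called in the 6 libraries alone (adjusted p = 0.00674). A member of the GH3 family, whose enzymes attach amino acids to auxin, BnaA01g00580D (AT1G59500), had 13, 22 and 138 TPM in shaded seeds, against 2, 2 and 1 TPM in control seeds (4.04 ± 0.62, adjusted p = 0.000611). Shaded replicate 3 was far above the other shaded libraries in this gene, but all 3 were above the controls.

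The highest mean levels in shaded seeds among these 15 genes belonged to a pair of cytochrome P450 genes, members of a large family of oxidizing enzymes. BnaC01g01500D had 79, 166 and 214 TPM in shaded seeds, against 9, 3 and 0 TPM in control seeds (5.79 ± 0.92, adjusted p = 0.00087). BnaA01g00520D had 45, 90 and 87 TPM in shaded seeds, against 4, 0 and 0 TPM in control seeds (6.10 ± 0.93, adjusted p = 0.000618). Both kept their call without any 1 library. BnaA07g22750D (AT1G73260), a Kunitz proteinase inhibitor, had 7, 19 and 34 TPM in shaded seeds, against 1, 0 and 0 TPM in control seeds (4.57 ± 0.81, adjusted p = 0.00185). BnaA05g05590D (AT2G40000), with the domain of the nematode resistance protein Hs1pro-1, had 21, 43 and 57 TPM in shaded seeds, against 3, 0 and 1 TPM in control seeds (4.77 ± 0.83, adjusted p = 0.00178). The 3 other annotated genes of this rank have no role named in the tables used here. BnaA07g20780D (AT1G77885) had 15, 21 and 34 TPM in shaded seeds, against 1, 0 and 2 TPM in control seeds (4.19 ± 0.70, adjusted p = 0.00123). BnaC04g16470D (AT2G27830) had 10, 19 and 37 TPM in shaded seeds, against 2, 1 and 0 TPM in control seeds (adjusted p = 0.00225), and BnaA01g01840D (AT4G35690) had 6, 17 and 23 TPM in shaded seeds and was listed at 0 in the controls (adjusted p = 0.00014). Of the 15 annotated rises named, 10 kept their call in all 6 fits without 1 library.

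Whatever the annotation, the largest rises were of BnaC02g02350D, BnaA09g45220D and BnaA06g16650D, which carry none in the tables used here. BnaC02g02350D had 63, 120 and 139 TPM in shaded seeds, against 2, 0 and 0 TPM in control seeds (6.90 ± 0.97, adjusted p = 0.000283). BnaA09g45220D had 44, 118 and 124 TPM in shaded seeds, against 0, 0 and 3 TPM in control seeds (6.51 ± 0.82, adjusted p = 7.28e-05). BnaA06g16650D had 79, 190 and 323 TPM in shaded seeds, against 30, 0 and 0 TPM in control seeds (6.43 ± 1.28, adjusted p = 0.00516, kept in 2 of the 6 fits without 1 library), so control replicate 1 was far above the other controls. Shaded replicate 1 was the lowest of its group in 219 of the 343 genes called higher and shaded replicate 3 the highest in 206 of them. The most abundant of the genes called higher, singled out after its values were seen, was BnaC03g34420D, with 1021, 772 and 1122 TPM in shaded seeds, against 428, 334 and 623 TPM in control seeds (1.10 ± 0.22, adjusted p = 0.00573). In 129 of the 343 genes all 3 control libraries were listed at 0. The median log2 difference of the genes called higher was 2.51, and 2.58 without those 129.

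**Figure D1:**
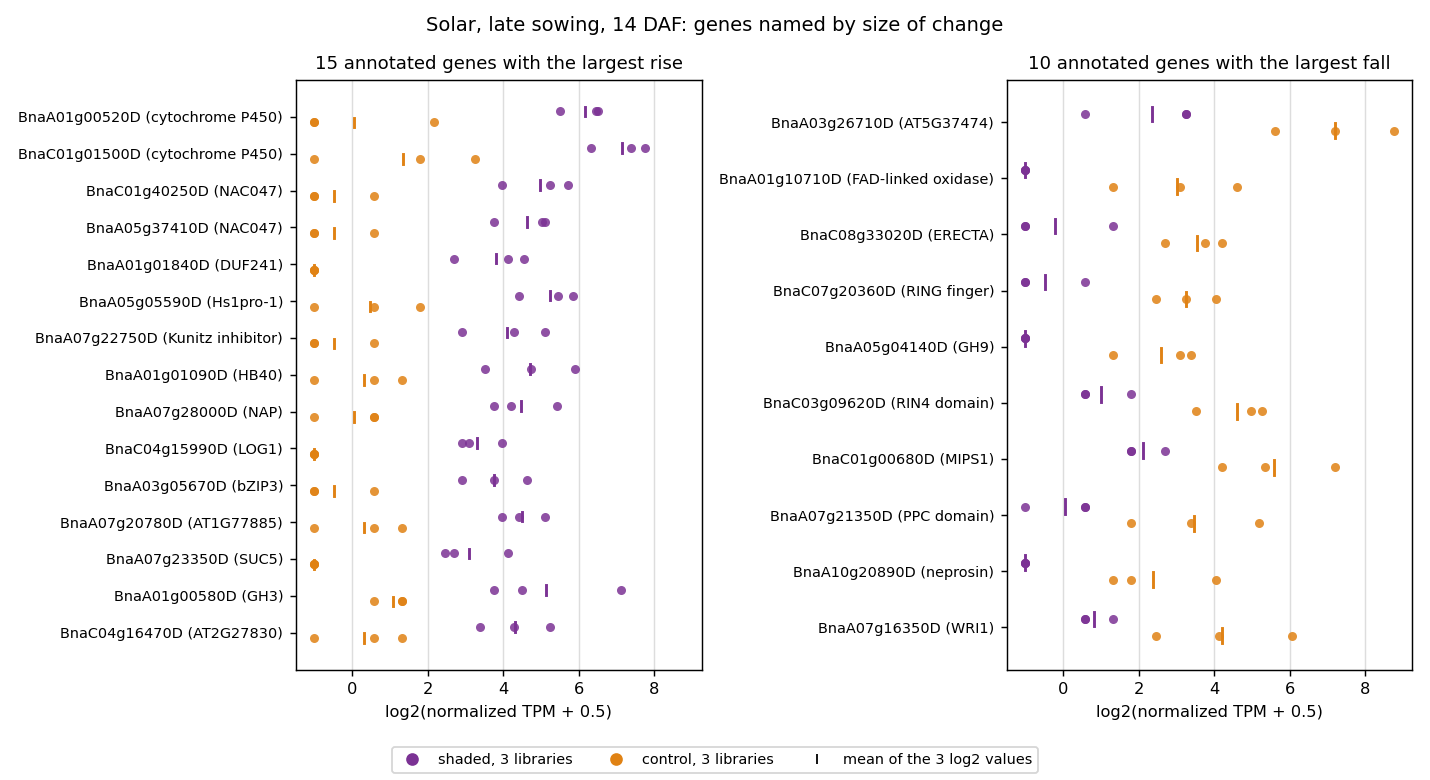
Levels of the annotated genes with the largest changes, 15 that rose (left) and 10 that fell (right), as log2(normalized TPM + 0.5) on the horizontal axis. Points are the 3 shaded and 3 control libraries of Solar, late sowing, 14 DAF, short bars are means of the log2 values, points at -1 are values of 0 TPM, and in none of these 25 genes do the shaded and control points overlap.

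The annotated genes that fell most were close to 0 in shaded seeds and higher, with a wide spread, in control seeds. BnaA07g16350D, a homologue of WRI1, had 1, 1 and 2 TPM in shaded seeds, against 17, 66 and 5 TPM in control seeds (log2 difference -3.38 ± 0.70, adjusted p = 0.00709 by limma). Its call was lost in 5 of the 6 fits that left out 1 library, with adjusted p up to 0.0695. The other 2 WRI1 homologues tested did not pass. BnaA09g34250D (WRI1) had 3, 2 and 3 TPM in shaded seeds, against 9, 46 and 6 TPM in control seeds (-2.18, adjusted p = 0.0364), and BnaC08g25150D (WRI1) had 2, 1 and 1 TPM in shaded seeds, against 7, 17 and 3 TPM in control seeds (-2.12, adjusted p = 0.0249). In all 3 homologues the shaded values lay below the control values, and control replicate 2 was the highest and control replicate 3 the lowest of the controls. BnaC01g00680D, a homologue of MIPS1 (AT4G39800), which makes the inositol phosphate used for phytate and membrane lipids, had 3, 3 and 6 TPM in shaded seeds, against 40, 146 and 18 TPM in control seeds (-3.48 ± 0.67, adjusted p = 0.00372).

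BnaC08g33020D, a homologue of the receptor kinase ERECTA (AT2G26330), which promotes organ growth in Arabidopsis, had 2, 0 and 0 TPM in shaded seeds, against 13, 18 and 6 TPM in control seeds (-3.78 ± 0.75, adjusted p = 0.00513). BnaA07g21350D (AT1G76500), with the PPC domain of AT-hook DNA-binding proteins, had 1, 0 and 1 TPM in shaded seeds, against 10, 36 and 3 TPM in control seeds (-3.41 ± 0.65, adjusted p = 0.00334). BnaC03g09620D (AT5G19473), with a domain of the immune regulator RIN4, had 3, 1 and 1 TPM in shaded seeds, against 31, 38 and 11 TPM in control seeds (-3.60 ± 0.53, adjusted p = 0.000398). Together with the RING finger gene BnaC07g20360D (AT5G47610), which had 1, 0 and 0 TPM in shaded seeds, against 9, 16 and 5 TPM in control seeds (-3.72 ± 0.58, adjusted p = 0.000764), it was 1 of the 2 annotated falls that kept their call in all 6 fits without 1 library. ERECTA and MIPS1 kept theirs in 2 of the 6.

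The annotated fall of largest size was BnaA03g26710D (AT5G37474), with 9, 1 and 9 TPM in shaded seeds, against 147, 432 and 48 TPM in control seeds (-4.83 ± 1.01, adjusted p = 0.00735, kept in 2 of the 6 fits without 1 library). The other annotated falls, all listed at 0 in the 3 shaded libraries, were the following. BnaA01g10710D (AT4G20800), a FAD-linked oxidase, had 8, 24 and 2 TPM in control seeds, BnaA05g04140D (AT2G44540), of the glycoside hydrolase family 9, had 8, 10 and 2 TPM, and BnaA10g20890D (AT5G05030), with a neprosin domain, had 3, 16 and 2 TPM. Their adjusted p values were 0.00208 for BnaA01g10710D, 0.00604 for BnaA05g04140D and 0.00149 for BnaA10g20890D.

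The 3 largest falls of any annotation were of genes without one. BnaA01g27700D had 0, 1 and 0 TPM in shaded seeds, against 104, 670 and 28 TPM in control seeds (-7.45 ± 1.12, adjusted p = 0.0005), and kept its call in all 6 fits without 1 library. The neighbours in the gene numbering BnaA02g24080D and BnaA02g24090D came next, with 1, 0 and 0 TPM in shaded seeds, against 31, 726 and 19 TPM in control seeds, for BnaA02g24080D (-6.73 ± 1.17, adjusted p = 0.00178). BnaA02g24090D was listed at 0 in the 3 shaded libraries and had 13, 514 and 13 TPM in the controls (adjusted p = 0.00592). Of the genes called lower, the 3 with the highest control means were singled out after their values were seen. The highest was BnaC04g30640D, with 36, 30 and 32 TPM in shaded seeds, against 1142, 10624 and 681 TPM in control seeds (-5.93 ± 1.07, adjusted p = 0.00227, kept in 3 of the 6 fits without 1 library). The shaded libraries were alike in these 4 genes, whereas the controls spread widely. The next 2 by control mean fell less, as BnaCnng10570D had 985, 575 and 295 TPM in shaded seeds, against 2264, 1462 and 2259 TPM in control seeds (-1.83 ± 0.32, adjusted p = 0.00173). BnaC01g12930D had 1009, 890 and 887 TPM in shaded seeds, against 1736, 2012 and 1313 TPM in control seeds (-0.84 ± 0.14, adjusted p = 0.00123). Control replicate 2 was the highest control in 254 of the 379 genes called lower and control replicate 3 the lowest in 262. The median log2 difference of the genes called lower was -2.08, and -1.68 without the 125 genes listed at 0 in all shaded libraries.

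Gene groups known from sugar supply, starvation, senescence and seed filling were then followed through lists of homologues, of which only those annotated in the tables used here could be counted. Of the 4783 annotated genes tested, 1.11% were called higher and 0.732% lower, with a median log2 difference of 0.00. Of 20 senescence genes tested, 6 were called higher and none lower, with a median log2 difference of 1.79, against 0.618% called higher, 0.683% called lower and a median of 0.00 over all genes tested. The 6 are NAC factors, namely both NAC047 genes, 3 NAP homologues and a homologue of ORS1, BnaC07g25530D, a regulator of leaf senescence in Arabidopsis that had 3, 12 and 18 TPM in shaded seeds, against 1, 0 and 0 TPM in control seeds (3.69 ± 0.56, adjusted p = 0.000611). The NAP homologue BnaA07g24270D had 5, 7 and 17 TPM in shaded seeds, against 1, 0 and 0 TPM in control seeds (3.64 ± 0.58, adjusted p = 0.000884), and the NAP homologue BnaC06g30680D had 3, 3 and 7 TPM in shaded seeds and was listed at 0 in the controls (adjusted p = 0.000581). The 3 NAP homologues thus had all shaded values above all control values. A homologue of the senescence protease gene SAG12, BnaC07g18750D, had 59, 25 and 14 TPM in shaded seeds, against 418, 1097 and 236 TPM in control seeds (-4.09, adjusted p = 0.0195), and did not pass the test. The chlorophyll breakdown gene PPH (BnaC03g06040D) had 11, 9 and 12 TPM in shaded seeds, against 10, 12 and 10 TPM in control seeds, with overlapping ranges. Of 32 NAC factors, 7 (21.9%) were called higher and none lower, with a median of 1.26, and 6 of the 7 are those of the senescence list. The seventh, BnaC03g39160D, had 5, 5 and 13 TPM in shaded seeds, against 1, 1 and 0 TPM in control seeds (2.83 ± 0.58, adjusted p = 0.00607). The NAC annotation comes in part from a table the study made on these samples, so these counts are not independent evidence of a direction.

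Of the 8 sugar supply genes tested, SUC5 alone (12.5%) was called higher and none lower (median -0.04), against 0.618% higher and 0.683% lower among all genes tested. BnaC03g52910D, the SWEET11 homologue, had 10, 12 and 12 TPM in shaded seeds, against 3, 1 and 5 TPM in control seeds, and did not pass (1.94 ± 0.55, adjusted p = 0.0502). Sucrose synthase and invertase homologues had overlapping ranges, as in BnaC03g10290D (SUS1), with 49, 48 and 44 TPM in shaded seeds, against 47, 37 and 60 TPM in control seeds. None of 16 genes of carbon starvation and darkness passed in limma (3, or 18.8%, at an unadjusted p under 0.05, against 15.7% of all genes tested, median 0.04). Their members disagreed in sign, with bZIP1 (BnaC07g27220D) at 2, 4 and 5 TPM in shaded seeds, against 1, 0 and 0 TPM in control seeds (2.46, adjusted p = 0.118), and SEN1 (BnaC01g02910D) at 0, 1 and 3 TPM in shaded seeds, against 6, 14 and 3 TPM in control seeds (-2.32, adjusted p = 0.0384).

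Of 26 genes of fatty acid and oil synthesis, 1 (3.85%) was called lower, the WRI1 homologue BnaA07g16350D, and none higher (median -0.20). Among all genes tested, 0.683% were called lower and 0.618% higher. A negative log2 difference was found in 17 of the 26, against 48.5% of all genes tested. Among the genes that did not pass, the BCCP2 homologue BnaA10g18680D, for a subunit of acetyl-CoA carboxylase, had 1, 1 and 0 TPM in shaded seeds, against 1, 7 and 1 TPM in control seeds (-1.30, adjusted p = 0.391). The ENO1 homologue BnaC06g34880D, for a plastid enolase, had 14, 15 and 11 TPM in shaded seeds, against 18, 24 and 15 TPM in control seeds (-0.48, adjusted p = 0.362). The acyl carrier protein gene BnaC09g16320D had 70, 73 and 66 TPM in shaded seeds, against 60, 64 and 67 TPM in control seeds (0.13, adjusted p = 0.49), and the values of all 3 genes overlapped between the groups. None of 17 flavonoid and seed coat genes passed in limma (12 at an unadjusted p under 0.05, against 15.7% of all genes tested). Of these 17, 15 had a negative log2 difference (median -0.74), against 48.5% of all genes tested. In 10 the shaded values lay below all control values, as they did in 5.83% of all genes tested. The CHS homologue BnaC03g06120D, for the first enzyme of flavonoid synthesis, had 24, 13 and 14 TPM in shaded seeds, against 46, 88 and 34 TPM in control seeds (-1.63 ± 0.50, adjusted p = 0.0746). The F3H homologue BnaC08g22640D, of the same pathway, had 88, 70 and 60 TPM in shaded seeds, against 141, 204 and 114 TPM in control seeds (-1.04, adjusted p = 0.0338).

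Of 21 photosynthesis genes, which green seeds express, 1 was called lower (4.76%, against 0.683% of all genes tested) and none higher (median -0.20). A negative log2 difference was found in 18 of the 21, against 48.5% of all genes tested. The gene called was BnaA05g05840D, a homologue of Rubisco activase (RCA), with 17, 15 and 11 TPM in shaded seeds, against 33, 28 and 23 TPM in control seeds (-0.95 ± 0.19, adjusted p = 0.00502), a call kept in 2 of the 6 fits without 1 library. The Rubisco small subunit gene BnaA04g08570D (RBCS1B) had 101, 101 and 106 TPM in shaded seeds, against 96, 122 and 113 TPM in control seeds. Of 164 ribosomal protein genes, 1 (0.61%) was called higher and none lower, against 0.618% higher among all genes tested and 1.11% among annotated genes. A positive log2 difference was found in 125 (76.2%) of the 164, against 46.2% of all genes (median of the 164 0.18). AP2/ERF and cell wall loosening lists held at most 1 call in a direction. That is 2.44% of 41 AP2/ERF genes each way and 4.17% of the cell wall genes higher, against 0.618% higher and 0.683% lower among all genes tested. AP2/ERF factors had BnaC05g37110D (AT3G16280) higher, with 28, 60 and 62 TPM in shaded seeds, against 9, 6 and 9 TPM in control seeds (2.51 ± 0.53, adjusted p = 0.00792, kept in 1 of the 6 fits without 1 library), and the WRI1 gene lower. Cell wall loosening genes had the xyloglucan-modifying enzyme gene BnaC01g08130D (AT4G30270) higher, with 33, 38 and 100 TPM in shaded seeds, against 16, 11 and 20 TPM in control seeds (1.69 ± 0.34, adjusted p = 0.0059, kept in 3 of the 6), among 24 genes with a median of 0.91. No call was made by limma among 33 core histone, 19 cell cycle, 15 WRKY, 12 abscisic acid and dehydration, 9 light and clock, 17 heat shock, 8 SAUR and 10 aquaporin genes, of which 21 of 123 (17.1%) had an unadjusted p under 0.05, close to the 15.7% of all genes tested.

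**Figure D2:**
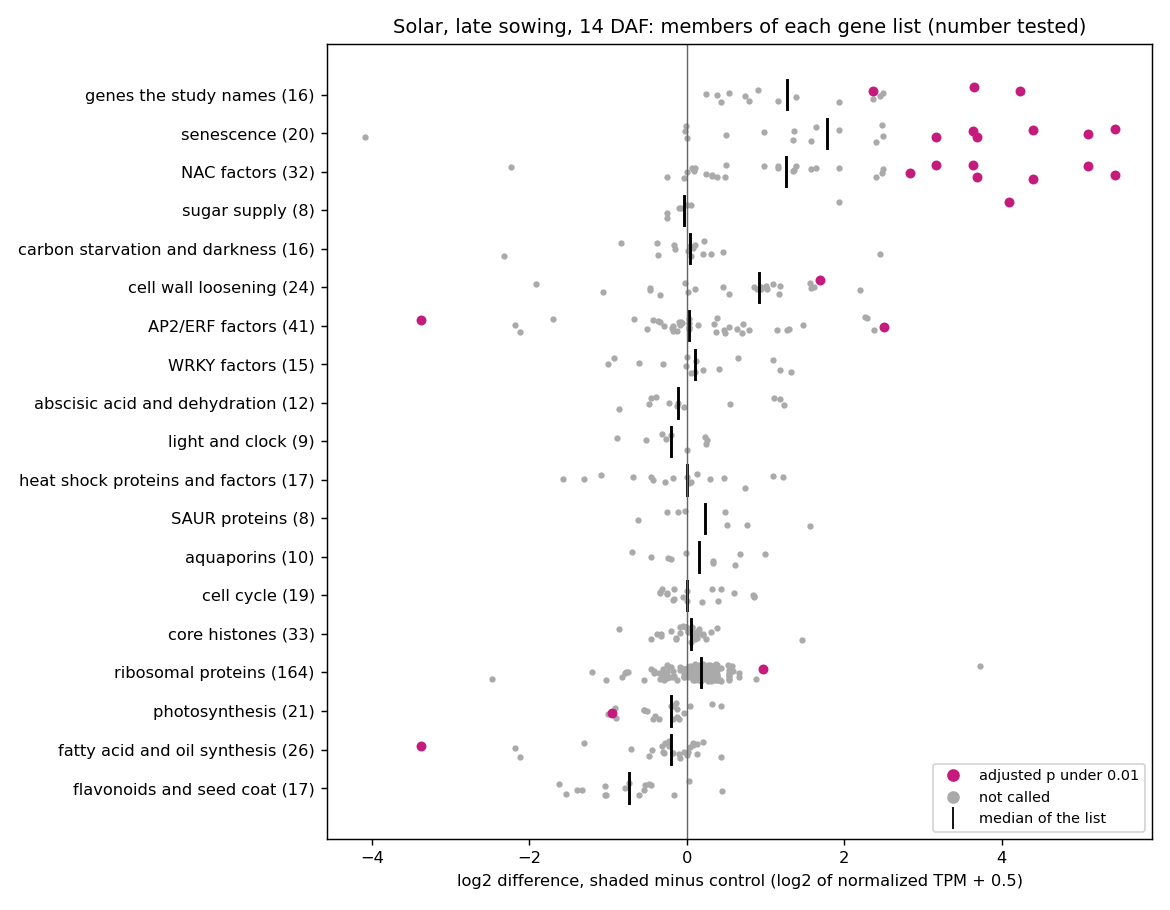
Log2 difference between shaded and control seeds (horizontal axis, on the log2(normalized TPM + 0.5) scale) for each tested member of 19 gene lists, with the number of members in brackets. Coloured points passed an adjusted p of 0.01, grey points did not, and the black bar is the median of the list, which is highest for senescence (1.79) and lowest for flavonoids and seed coat (-0.74).

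In its account of the S–S response and of co-expression networks at 7 and 14 DAF, the study names 17 genes, of which 16 could be tested here. They were chosen by the study on these samples among others, so their direction is not independent evidence. All 16 had a positive log2 difference (median 1.27), against 46.2% of all genes tested. The test was passed by 3 (18.8%), namely bZIP3, NGAL2 and a homologue of HB40, against 0.618% called higher among all genes tested. BnaC01g44850D (NGAL2), a B3 factor that limits seed size in Arabidopsis, had 5, 10 and 13 TPM in shaded seeds, against 1, 1 and 2 TPM in control seeds (2.37 ± 0.38, adjusted p = 0.00087), a call kept in all 6 fits without 1 library. BnaC01g02120D (HB40) had 4, 8 and 19 TPM in shaded seeds, against 1, 0 and 0 TPM in control seeds (3.65 ± 0.64, adjusted p = 0.00182, kept in 4 of the 6). The SWEET12 gene BnaC09g04760D had 9, 9 and 8 TPM in shaded seeds, against 1, 1 and 2 TPM in control seeds, without overlap but short of the threshold (2.36 ± 0.61, adjusted p = 0.0303). Likewise BnaA05g24050D (NAC3) had 5, 7 and 14 TPM in shaded seeds, against 1, 1 and 1 TPM in control seeds (2.49 ± 0.62, adjusted p = 0.024). Both NAC041 genes were higher in all shaded than in all control libraries without passing, with 16, 21 and 20 TPM in shaded seeds, against 6, 15 and 6 TPM in control seeds, in BnaC04g43920D (1.16, adjusted p = 0.412). The values of FERONIA (BnaC07g32280D), NAC082 (BnaC09g47170D) and CRF6 (BnaA07g38140D) overlapped between the groups. The study took NAC082, CRF6, NGAL2, NAC041 and IDD1 from its network at 7 DAF, not from 14 DAF. In shaded late-sown Lumen at 7 DAF, limma gave 2.08 for NAC082 (adjusted p = 0.000804) and 2.47 for CRF6 (adjusted p = 0.00106). At optimal sowing and 7 DAF neither passed (0.70 and 1.24, adjusted p = 0.66 and 0.319).

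Most genes that fell in shaded Solar seeds were higher at 14 than at 7 DAF in late-sown Lumen. This contrast, between 14 and 7 DAF in unshaded Lumen, was added after the Solar values had been seen, and it shares no library with the Solar comparison, though both use the same estimate of spread. It took the 14 and 7 DAF libraries as independent, although the same plots were sampled at both. Of the 379 genes called lower in shaded Solar seeds, 247 (65.2%) were called higher at 14 than at 7 DAF in late-sown Lumen, against 6.24% of all genes tested, and they are 7.14% of the genes called there. Of these 379, 35 kept their call with the spread of the 12 libraries of late sowing at 14 DAF. The median log2 difference of the 379 between 14 and 7 DAF was 1.99, against 0.00 over all genes. In Lumen of the optimal sowing date, 126 (33.2%) were called higher at 14 DAF, against 2.99% of all genes. The abundant gene BnaC04g30640D had 27230, 7591 and 5354 TPM at 14 DAF, against 9, 5 and 2 TPM at 7 DAF in late-sown control Lumen. The WRI1 homologue BnaA07g16350D had 151, 56 and 43 TPM at 14 DAF, against 0, 0 and 1 TPM at 7 DAF in the same groups. Of the 343 genes called higher in Solar, 54 (15.7%) were called lower at 14 DAF in late-sown Lumen, against 4.04% of all genes, and 44 (12.8%) at the optimal sowing date, against 2.31%.

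The same was seen from the side of the stage-dependent genes, which were called on differences between Lumen libraries, among the genes tested. The genes tested had been filtered on their level in the Solar libraries compared here. A gene under the filter level in the shaded Solar libraries could thus enter only through the Solar controls, and the reverse. The choice was therefore not fully independent of the Solar values, although the rates over all genes tested come from the same filtered genes. Of 838 genes called higher at 14 than at 7 DAF in unshaded Lumen at both sowing dates, 111 (13.2%) were called lower and 0 higher in shaded Solar seeds by limma (577 lower and 0 higher at an unadjusted p under 0.05), against 0.683% lower and 0.618% higher among all genes tested. Of the 838, 804 (95.9%) had a negative log2 difference (median -0.68), against 48.5% of all genes. Their median level, as log2(TPM + 0.5), was 3.95, 3.64 and 3.52 in the shaded Solar libraries, against 4.73, 4.93 and 4.21 in the control Solar libraries. In late-sown control Lumen it was 5.11, 4.98 and 4.88 at 14 DAF, against 3.09, 3.09 and 2.91 at 7 DAF. The shaded Solar libraries thus lay between these stages of late-sown control Lumen and below all 3 Solar controls, of which replicate 3 was the nearest. In shaded late-sown Lumen at 14 DAF the median of the 838 was 5.04, 4.55 and 4.98, near its control. At optimal sowing and 14 DAF it was 3.39, 2.91 and 3.32 in shaded Lumen, against 4.36, 4.29 and 4.13 in control Lumen. A lower level under shading was thus not particular to Solar. Of 429 genes called higher at 7 DAF, 21 (4.9%) were called higher in shaded Solar seeds, against 0.618% of all genes tested. The median level of the 429 was 3.09, 3.25 and 3.52 in shaded Solar, against 2.46, 2.46 and 3.09 in control Solar. Here shaded replicate 1 and control replicate 3 had the same value. A seed sample at an earlier stage and a lower level of these genes at the same stage cannot be told apart in whole seeds, nor can fewer cells of a type and less RNA per cell.

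**Figure D3:**
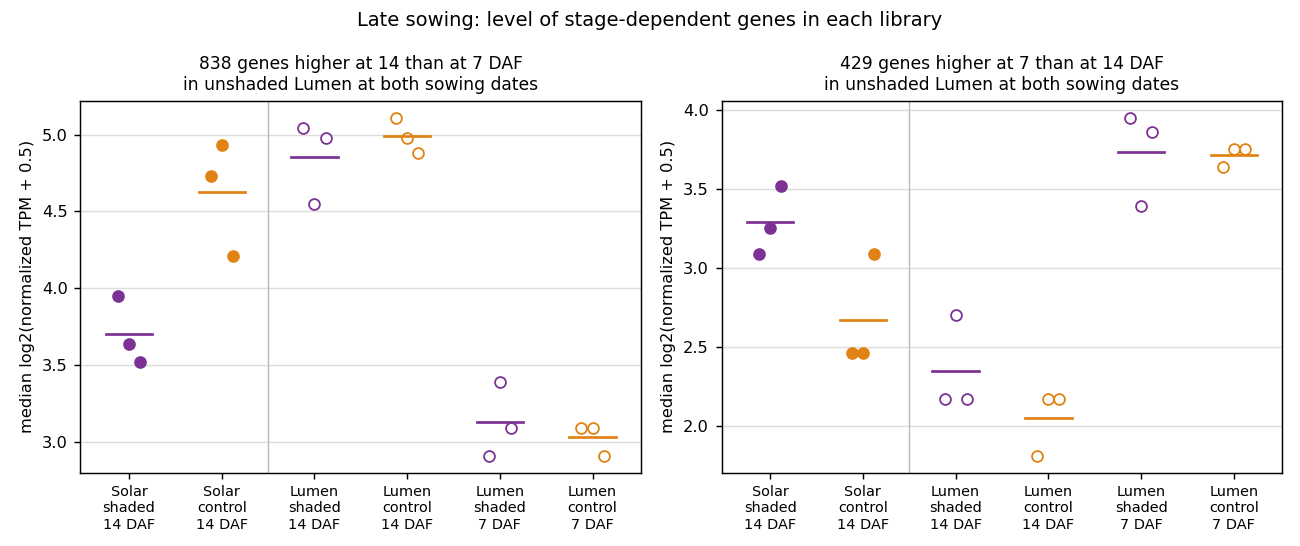
Median level of stage-dependent genes in each library of the late sowing date, as log2(normalized TPM + 0.5), for 838 genes higher at 14 DAF (left) and 429 genes higher at 7 DAF (right) in unshaded Lumen. Each point is a library, each line the mean of 3, and filled points are Solar, where the shaded libraries (3.52 to 3.95) lie below the controls (4.21 to 4.93) in the left panel.

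Many genes that rose in Solar were also called higher in shaded Lumen at 7 DAF, in comparisons added after the Solar values had been seen and without shared libraries. Of the 343 genes called higher in Solar, 154 (44.9%) were also called higher in shaded late-sown Lumen at 7 DAF, against 1.48% of all genes tested, and they are 18.8% of the genes called higher there. Their median log2 difference in that comparison was 1.87, against 0.00 over all genes, and 86.3% of them were positive, against 47.6% of all genes. The NAC047 gene BnaC01g40250D had 19, 152 and 142 TPM in shaded Lumen at 7 DAF, against 0, 1 and 1 TPM in control Lumen (log2 difference 6.17, adjusted p = 2.61e-05). At 14 DAF of the same sowing it was listed at 0 in all 6 Lumen libraries, shaded and control. In Lumen of the optimal sowing at 14 DAF, 33 (9.62%) of the 343 genes were called higher, against 0.211% of all genes, and 28 (7.39%) of the 379 genes called lower in Solar were called lower, against 0.243%. At 7 DAF of the late sowing, 3 of the 379 genes called lower in Solar (0.792%) were called lower in shaded Lumen, against 0.0919% of all genes. In optimally sown Lumen at 7 DAF, 8 (2.33%) of the 343 were called higher, against 0.0198%. A total of 18 genes were called higher in Solar, in late-sown Lumen at 7 DAF and in optimally sown Lumen at 14 DAF. The GH3 gene BnaA01g00580D and the ORS1 homologue BnaC07g25530D are among them.

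In Lumen of the same sowing date and time, few genes passed the test. Of 55469 genes, limma called 3 (0.00541%) in late-sown Lumen at 14 DAF, and 1 of them, BnaC03g01810D, was also called in Solar, at 1, 1 and 1 TPM in shaded seeds, against 0, 0 and 0 TPM in control seeds of both genotypes. The median Lumen difference was 0.00 for the genes called higher in Solar and -0.10 for those called lower. The difference between the genotypes was tested directly as an interaction, with no term for the subplots that the genotypes shared. It passed in 47 genes (0.0847%), 18 (0.0325%) with a more positive and 29 (0.0523%) with a more negative effect in Solar, and 46 of the 47 were also called in Solar itself. With the spread of the 12 libraries of late sowing at 14 DAF the count was again 47, but 39 were more positive and 8 more negative in Solar, and only 8 of the 47 were shared. In 30 of the 47 genes of the 30-library fit all 4 group means were under 5 TPM, none of these 47 is annotated, and among genes with at least 5 TPM in 3 of the 6 libraries limma called 2. So for most genes called in Solar, the absence of a call in Lumen is not shown to be a difference between the genotypes. The NAC047 genes, at 0 in all 6 of these Lumen libraries, did not pass, with an adjusted p of 0.0132 for BnaC01g40250D and 0.0309 for BnaA05g37410D. The interaction of WRI1 (BnaA07g16350D) was -3.18, with an adjusted p of 0.258. Against optimally sown Lumen at 14 DAF, where both genotype and sowing date differ, 27 genes (0.0487%) passed, 9 (0.0162%) more positive and 18 (0.0325%) more negative in Solar, all 27 of them among the 47 of the 30-library fit.

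**Figure D4:**
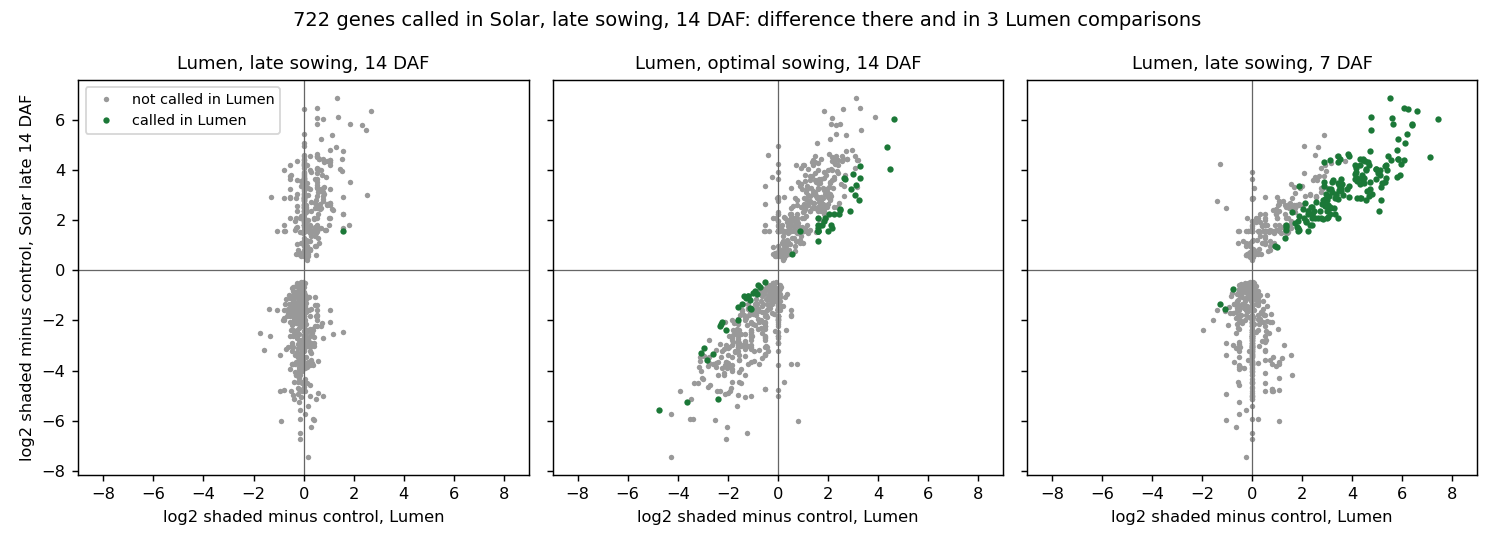
Log2 difference between shaded and control seeds for the 722 genes called in Solar, late sowing, 14 DAF (vertical axis) and for the same genes in 3 Lumen comparisons (horizontal axes), all on the log2(normalized TPM + 0.5) scale. Green points were also called in that Lumen comparison, 1 at late sowing and 14 DAF, 61 at optimal sowing and 14 DAF (0.454% of all genes were called there), and 157 at late sowing and 7 DAF (1.57%).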

How the data were processed

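Per the labels and the study's methods, the authors quantified the reads with kallisto 0.46 on the 101040 cDNAs of AST_PRJEB5043_v1 and normalized with sleuth. The deposited score of each gene is that normalized TPM, given as a whole number, and commas were removed from 2327 values. The depth is unknown and no count test was run.

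Values were tested as log2(TPM + 0.5), which understates the change of low genes, where 3 or more of the 6 libraries reached 1 TPM. limma 3.58.1 in R 4.3.3 (empirical Bayes with trend, two-sided) fitted 10 group means over 30 libraries, with 20 residual degrees of freedom. Benjamini-Hochberg adjustment covered every gene tested, with a threshold of 0.01. The script was tested on simulated data. A limit on false calls was set there only for genes with at least 5 TPM in 3 of the 6 libraries. The simulation thus gives no assurance for calls of lower genes. An exact permutation test of 3 against 3 cannot go below 0.1.

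Named were the 15 rises and 10 falls of largest log2 difference among annotated genes called without overlap, the 3 of each without regard to annotation, genes the study names, and leading list members. Annotations of 5279 genes came from the study's supplementary tables. The members and lists were chosen with earlier results of these data known. Sequences and coordinates were not used here. Alternatives varied pseudocount, filter, scaling, libraries, trend, threshold and replicate block.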

Additional observations from a re-analysis of the deposited data

Results flagged for a closer look

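The shading effect differed between the genotypes by a test of the difference itself (the interaction in limma, adjusted p under 0.01) in the following genes, which have no annotation in the tables used here and were taken as the 3 largest in each direction because none of the called genes is annotated. BnaA05g31350D had 9, 41 and 88 TPM in shaded Solar seeds, against 1, 1 and 0 TPM in control Solar seeds, and was listed at 0 in all 6 Lumen libraries of late sowing at 14 DAF, so its difference of 4.97 is that of Solar alone (adjusted p = 0.00228). It was also listed at 0 in the 6 libraries of optimally sown Lumen at 14 DAF, where the difference was again 4.97. BnaA04g29030D had 12, 21 and 15 TPM in shaded Solar seeds, against 2, 0 and 0 TPM in control Solar seeds, and was at 0 in both sets of Lumen libraries, with a difference of 4.23 in each test (adjusted p = 0.00327 at late sowing). BnaA10g13850D had 7, 12 and 14 TPM in shaded Solar seeds and was listed at 0 in control Solar seeds and in late-sown Lumen at 14 DAF (4.47, adjusted p = 0.00531). Lumen groups listed at 0 throughout add no spread to the shared estimate, so these p-values do not measure the spread between Solar plots alone. In the 6 Solar libraries alone, limma gave the Solar effect an adjusted p of 0.16 for BnaA05g31350D, 0.123 for BnaA04g29030D and 0.00356 for BnaA10g13850D.

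The other 3 were lower in shaded Solar seeds and present in all Lumen libraries of late sowing at 14 DAF. BnaCnng53450D had 1, 0 and 1 TPM in shaded Solar seeds, against 33, 97 and 18 TPM in control Solar seeds, and 205, 37 and 86 TPM in shaded Lumen seeds, against 210, 69 and 66 TPM in control Lumen seeds (-5.06, adjusted p = 0.00997). BnaA01g19470D was listed at 0 in shaded Solar seeds and had 12, 36 and 11 TPM in control Solar seeds, with 59, 10 and 48 TPM in shaded Lumen seeds, against 60, 40 and 27 TPM in control Lumen seeds (-4.73, adjusted p = 0.00194). BnaC05g19360D was listed at 0 in shaded Solar seeds and had 8, 44 and 10 TPM in control Solar seeds, with 109, 16 and 79 TPM in shaded Lumen seeds, against 162, 51 and 42 TPM in control Lumen seeds (-4.55, adjusted p = 0.0082). The values of shaded and control Lumen seeds overlapped in all 3 genes. Where all libraries of a group are at 0, the size of these differences depends on the pseudocount of 0.5. All 6 genes kept the call of the shading effect in Solar in every fit without 1 library. That is another test than the interaction, and whether the interaction of each gene held in those fits is not given here. Of the 47 interaction calls, 8 were shared with the fit on the 12 libraries of late sowing at 14 DAF. In the 6 Solar libraries alone, limma gave the Solar effect an adjusted p of 0.0845 for BnaCnng53450D, 0.0211 for BnaA01g19470D and 0.0639 for BnaC05g19360D.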

How the results depend on the processing

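Under the other scalings (sums of 1000000, median ratios, quantiles), another pseudocount, no filter and no trend, between 687 and 753 genes were called for the shading effect in Solar. With at least 5 TPM in 3 of the 6 libraries, 362 were called (174 higher, 188 lower). An adjusted p under 0.05 gave 2098 calls (982 higher, 1116 lower). The 12 libraries of late sowing at 14 DAF gave 353, of which 305 (86.4%) were higher and 48 lower, against 47.5% higher with 30 libraries, and 157 of the 343 rises and 35 of the 379 falls kept their call. The 6 libraries alone gave 285 (189 higher, 96 lower). All 48 libraries gave 649 (54.1% higher). With 5 TPM in 3 of the 6 as well, settings that were added after the data were seen, the 6 libraries gave 0 (3978 genes at an unadjusted p under 0.05), the 12 gave 45 (41 higher, 4 lower) and the 48 gave 275 (163 higher, 112 lower). Without 1 of the 6 libraries, limma made between 310 and 1129 calls, from 130 to 516 higher and from 125 to 613 lower, where a group left with 2 libraries shares the common spread. The Solar minus Lumen difference (47 genes) fell to 29 with sums of 1000000, 19 with all 48 libraries and 2 with the 5 TPM filter, and gave 128 under 0.05. The 12 libraries without that filter gave 47, of which 39 were more positive and 8 more negative in Solar, with 8 genes shared, against 18 and 29 with 30 libraries. With that filter, limma gave 0 for the 12 libraries and 0 for the 48 (1962 and 2230 at an unadjusted p under 0.05). Without 1 library it gave between 41 and 113. The difference from optimally sown Lumen (27 genes) fell to 13, 1 and 2 under these settings, gave 46 under 0.05 and 0 with the 48 libraries and the filter (1792 at an unadjusted p under 0.05), and between 31 and 45 without 1 library. It could not be computed from the 12 libraries.

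Same-numbered libraries did not deviate together (correlation of deviations from the group means -0.056, -0.181 and -0.234 for replicates 1, 2 and 3), so the numbers were not taken to pair the samples. A replicate block in the 30-library fit gave 653 calls in Solar (332 higher, 321 lower), 24 for the Solar minus Lumen difference and 6 for that from optimally sown Lumen. In the 6 libraries alone with the replicate block, limma called 0 genes (6309 at an unadjusted p under 0.05). Limits are the 3 plots per group, the unknown depth, the whole-number values and an annotation that covers few genes. The median log2 difference over all genes moved by at most 0.067 under the scalings.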
